A study of Mus musculus with 2 samples.

Results

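The 10 genes described here are the classic signature of regulatory T cells: Foxp3, Ikzf2, Ikzf4, Ctla4, Icos, Tnfrsf4, Tnfrsf18, Gpr83, Nt5e and Izumo1r. They were chosen by symbol, and all 10 were found among the 32285 genes of both count matrices. The cells come from the spleens of C57BL/6 mice and were sequenced as 10x Genomics 3′ libraries, 1 labelled WT and 1 labelled RPA1 conditional knockout (CKO). The RPA1 protein belongs to the complex that coats single-stranded DNA while DNA is copied and repaired. The labels give neither the Cre driver nor the deleted exons, nor the age, sex or number of mice behind a library, and they name no further treatment. Each genotype is thus a single sample with no replicate check. No test was made, every value describes these libraries, and cells were not used as replicates.

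Regulatory T cells restrain immune responses, and the transcription factor FOXP3 fixes their identity. Several of the signature genes encode surface proteins through which these cells act or receive signals: CTLA4 removes costimulatory ligands from antigen-presenting cells, ICOS and the tumour necrosis factor receptors OX40 (Tnfrsf4) and GITR (Tnfrsf18) take up costimulation, and CD73 (Nt5e) makes adenosine from AMP. In the spleen, regulatory T cells range from resting, recirculating cells to effector cells that have seen antigen.

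Cells were sorted into gates by unique molecular identifiers (UMIs, each standing for 1 captured transcript). T cells had at least 2 UMIs over Cd3d, Cd3e and Cd3g and at most 1 B cell marker UMI. Cells with a UMI of Csf1r, C1qa, C1qb, Siglech, Xcr1 or Ncr1 were left out of the T cells. Of these, the Foxp3-positive gate took cells with a Foxp3 UMI and no Cd8a, Cd8b1 or Trdc UMI. The CD4 gate took cells with a Cd4 UMI, and the CD8 gate cells with a Cd8a or Cd8b1 UMI, both without Foxp3, Trdc or the other co-receptor. The Foxp3-positive gate held 135 WT cells (median 5862 UMIs) and 34 CKO cells (median 4859.5 UMIs). The CD4 gate held 1185 WT and 277 CKO cells, and the CD8 gate 1139 WT and 75 CKO cells. The small CKO gates set the precision of everything that follows.

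The libraries held 84240951 UMIs (WT) and 76910129 UMIs (CKO), with 12679 and 12610 cells retained, and 36 barcode sequences occurred in both. The targeted gene Rpa1 had 40 UMIs in WT and 4 in CKO in the Foxp3-positive gate, a CKO over WT ratio of CPM (a gene's UMIs per 1000000 UMIs of the gate) of 0.561 (0.146–1.55). It stood at 46.5 and 35.2 CPM in the CD4 gate, a ratio of 0.757 (0.567–0.997), and at 38.8 and 38.0 CPM in the CD8 gate. A 3′ tag can lie outside the deleted part, so this does not check the genotype labels. In the Foxp3-positive gate all 6 T cell markers were detected in both libraries, and the 5 conventional dendritic markers were at 0 UMIs in both. Myeloid markers summed to 5 and 2 UMIs, B markers to 34 and 4 and NK markers to 35 and 0. Plasmacytoid dendritic markers summed to 155 and 23 UMIs, of which Bst2 gave 130 and 15, and neutrophil markers to 27 and 9. The gate itself required Cd3 UMIs, capped B marker UMIs and excluded Csf1r, C1qa, C1qb, Siglech, Xcr1 and Ncr1. For those genes the low or high counts were set in advance and are no check. Cd4 was detected in 60.7% of WT and 64.7% of CKO cells of that gate, and Il2ra (CD25) in 56.3% and 35.3%. Its 5 cycling markers summed to 398 UMIs in WT and 0 UMIs in CKO, and 4 WT cells and 0 of 34 CKO cells had at least 3 of them. For 0 of 34 cells, 3 counts of the total allow a share of up to 8.82%. Without the 4 WT cells, the CKO over WT ratios of the 5 members that were lower in this gate stood between 0.136 and 0.423, and Gpr83 (0.630) was also at least 1.5-fold lower.

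The share of Foxp3-positive cells among CD4-lineage cells did not differ between the libraries beyond counting error, while Foxp3-positive and CD4 gate cells were both scarcer in the CKO library. They were 135 of 1320 CD4-lineage cells (10.2%, 8.64–12.0%) in WT and 34 of 311 (10.9%, 7.69–14.9%) in CKO. CD4-lineage here means the Foxp3-positive plus the CD4 gate, and only the CD4 gate required a Cd4 UMI. Foxp3-negative CD4 T cells without a captured Cd4 UMI are missing from the total, so these shares hold for the gates only. The ratio of these shares was 1.07 (0.711–1.57), so a difference within these bounds was not detectable at this depth. Of all retained cells they made up 1.06% in WT and 0.270% in CKO, a ratio of 0.253 (0.169–0.371), or 3.95-fold lower. Shares of a spleen sum to a whole, and B gate cells made up 54.9% of retained WT and 77.6% of retained CKO cells. All intervals on shares are exact Clopper-Pearson, those on CPM exact Poisson and those on ratios exact conditional binomial, at the 95% level. They cover counting error only.

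Most of the signature was higher in the Foxp3-positive than in the CD4 gate of both libraries. In WT, each of the 9 members other than Foxp3 was at least 1.5-fold higher in the Foxp3-positive than in the CD4 gate, where 16.9% of 9959 measured genes were. In CKO, 7 of 8 measured members were, against 18.0% of 7141 genes. A gene counted as measured with at least 20 UMIs over both gates. The members' median log2 ratio was 2.53 in WT and 2.23 in CKO, beside 0.09 and -0.01 over all measured genes. Foxp3 itself split the gates, so its own contrast is no result.

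Ctla4 had the highest such ratio in both libraries, with 219 against 10.5 CPM in WT (20.9-fold, 16.2–27.3). In CKO it stood at 90.0 against 3.52 CPM (25.6-fold, 9.37–80.4), on 15 and 6 UMIs. Ikzf2, which encodes the Ikaros-family factor Helios, was 17.6-fold (15.9–19.7) higher in WT and 11.9-fold (9.34–15.2) in CKO. For Tnfrsf4 the ratios were 15.8 (13.5–18.6) and 7.98 (4.87–13.0). In WT these 3 members had the highest ratios. Their intervals overlap in both libraries, so their order is not settled. Ikzf4 (Eos, a further Ikaros-family factor) followed at 10.5 in WT and 6.23 in CKO. The orphan receptor gene Gpr83 (6.14 and 3.17), Tnfrsf18 (5.12 and 3.28) and Izumo1r (4.27 and 3.81) were closer to other CD4 T cells. The CKO value of Gpr83 rests on 9 UMIs in the Foxp3-positive gate (1.32–6.89). Izumo1r encodes folate receptor 4, long used as a surface marker of these cells. Icos was the measured member below 1.5-fold in the CKO library: its ratio was 4.16 (3.43–5.02) in WT and 0.930 (0.243–2.55) in CKO. The difference between these ratios was not tested. Nt5e was 5.82-fold higher in WT and 3.72-fold (0.864–12.6) in CKO, where its 15 UMIs fell short of the minimum.

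**Figure D1:**
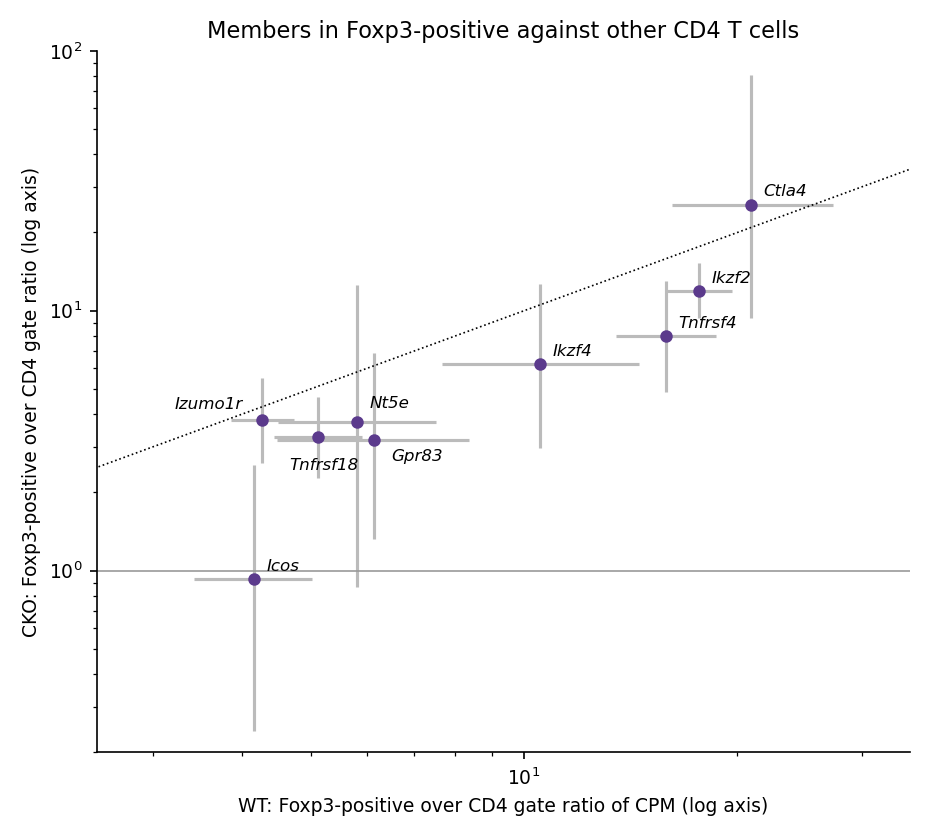
Ratio of CPM in the Foxp3-positive over the CD4 gate for the 9 members other than Foxp3, WT on the x axis and CKO on the y axis, both log axes, with exact 95% counting intervals in grey; the dotted line marks equal ratios and the solid line a CKO ratio of 1. Ctla4 lies at 20.9 and 25.6, and Icos lies at 4.16 and 0.930, with its point under the solid line; the CKO intervals of Icos and Nt5e cross that line.

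Outside the CD4 lineage the members differed in where they were still detected. Tnfrsf18 was detected broadly: 97.7 CPM in WT and 78.8 CPM in CKO natural killer (NK) cells, and 22.0 and 19.0 CPM in B cells. Ikzf2 reached 301 and 246 CPM in the Trdc-positive gate (γδ T cells; 25 WT and 81 CKO cells), its next highest level after Foxp3-positive cells. Nt5e stood at 56.0 and 40.4 CPM there and at 23.5 and 24.7 CPM in the CD8 gate, above its CD4 gate level of 19.1 and 6.46 CPM. Izumo1r (63.0 and 24.6 CPM) and Icos (56.0 and 24.6 CPM) were also present in the Trdc-positive gate, each on 14 UMIs or fewer per library. Ctla4, Gpr83 and Ikzf4 were at or under 4.77 CPM in each CD8, NK and B gate except for Gpr83 in CKO CD8 cells. Foxp3, Ikzf4, Ctla4 and Gpr83 had no UMI in 131 WT and 194 CKO myeloid cells, which allows up to 2.29% and 1.55% of cells with one at 3 counts of the total. The B gate (median 4663.5 UMIs in WT and 4452.5 in CKO) was read as a comparison for free RNA. In it, 0.373% of WT cells had an Ikzf2 UMI, 0.345% a Ctla4 UMI, 0.144% an Icos UMI and 1.55% an Izumo1r UMI. Tnfrsf18 was in 10.9% of these B cells and 39.6% of WT NK cells, but in 3.05% of WT myeloid cells. Izumo1r was in 0.266% of WT NK and 0.763% of WT myeloid cells. The B gate is thus no common floor for Tnfrsf18 and Izumo1r. How much of its values is free RNA was not tested.

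**Figure D2:**
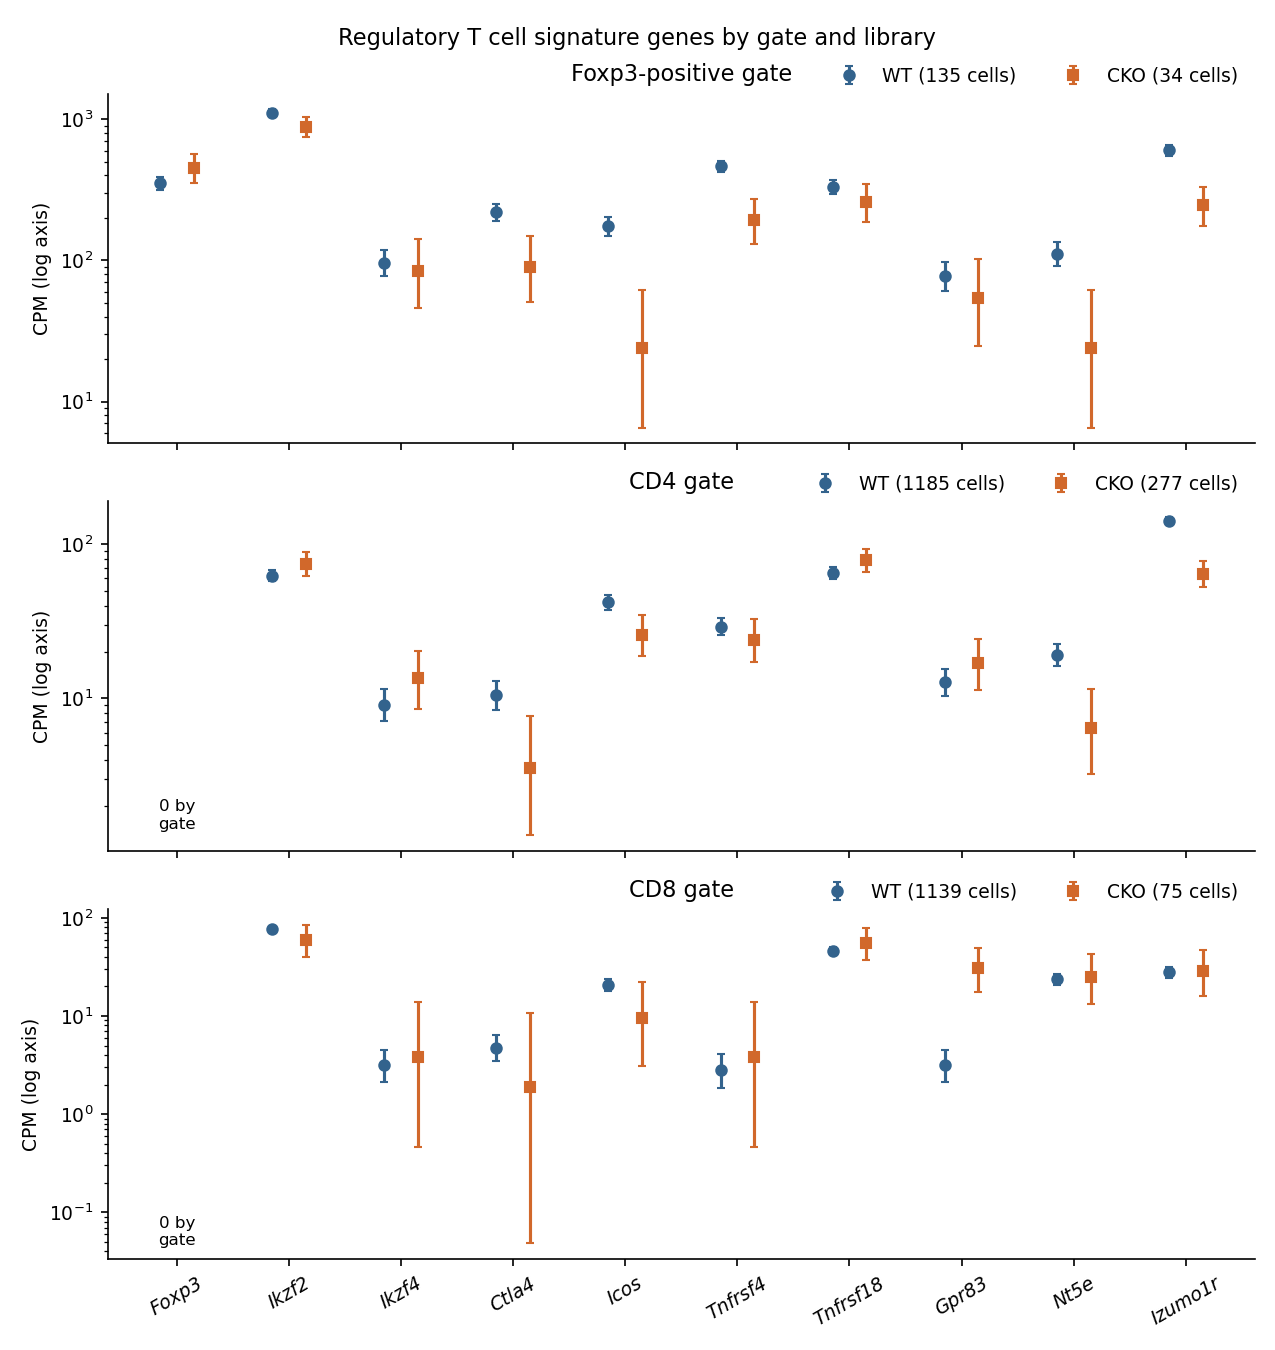
CPM of each member (log axis) in the Foxp3-positive, CD4 and CD8 gates, WT as circles and CKO as squares, with exact Poisson 95% intervals; Foxp3 is 0 by definition in the lower panels. In the top panel Icos and Nt5e both stand at 24.0 CPM in CKO, and in the bottom panel Gpr83 stands at 30.4 CPM in CKO against 3.14 CPM in WT.

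Within Foxp3-positive cells, the transcription factor genes Ikzf2 and Ikzf4 differed by less than 1.5-fold between the libraries. Of the 7 surface protein genes, 5 were lower in CKO. The remaining factor gene, Foxp3, chose these cells and is no part of this contrast. With a Cd4 UMI required in the gate (82 WT and 22 CKO cells), Ikzf2 (0.643) and Ikzf4 (0.399) were past that size too, and 7 of the 10 members were. Icos, Nt5e, Izumo1r, Ctla4 and Tnfrsf4 were each at least 1.5-fold lower, and their intervals lay below 1. No member was at least 1.5-fold higher. Of 5985 measured genes 22.7% were lower and 14.5% higher by that size, so 5 of 10 lower stands beside a background that itself leaned lower. The members' median log2 ratio was -0.89, beside -0.05 over all measured genes. Both the count of 10 and this median include Foxp3.

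Foxp3 had 330 UMIs in WT (353 CPM) and 75 UMIs in CKO (450 CPM). Its ratio of 1.28 (0.979–1.64) is a description, since Foxp3 chose these cells. A single Foxp3 UMI was all that 55 of 135 WT and 17 of 34 CKO cells had. Ikzf2 stood at 1106 CPM in WT (1034 UMIs) and 888 CPM in CKO (148 UMIs), a ratio of 0.803 (0.672–0.955). That difference depended on the gate: with at least 2 Foxp3 UMIs (80 WT and 17 CKO cells) the Ikzf2 ratio was 1.07, and with a Cd4 UMI required it was 0.643. Ikzf4 stood at 96.2 and 84.0 CPM (90 and 14 UMIs), a ratio of 0.873 (0.459–1.54). The interval is wide enough to hold a fall or a gain of 1.5-fold. With a Cd4 UMI required the Ikzf4 ratio was 0.399 (0.126–0.973).

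Icos showed the lowest ratio of the 10. It had 163 UMIs in WT (174 CPM) and 4 UMIs in CKO (24.0 CPM), a ratio of 0.138 (0.0371–0.359) or 7.26-fold lower. Cells with an Icos UMI were 42.2% in WT and 11.8% in CKO, and 20.1% and 4.42% once each cell was thinned to 2000 UMIs (1 shallower cell left out per library). Of the WT UMIs, 15.3% came from 1 cell with 25 UMIs. Ctla4, like Icos a gene of the CD28 family, had 205 UMIs in WT (219 CPM) and 15 in CKO (90.0 CPM), a ratio of 0.411 (0.226–0.693). It was detected in 59.3% of WT and 26.5% of CKO cells, and in 31.8% and 13.7% after thinning. Both genes were detected in a smaller share of CKO cells, also after thinning. UMIs per positive cell were 2.86 and 1 for Icos, and 2.56 and 1.67 for Ctla4. These were not adjusted for depth, which was lower in the CKO gate (median 4859.5 against 5862 UMIs). The CKO Icos value rests on 4 cells with 4 UMIs. For these low counts a positive cell with 1 UMI is the least that can be seen.

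The adjacent receptor genes Tnfrsf4 and Tnfrsf18 gave different sizes of ratio. Tnfrsf4 had 433 UMIs in WT (463 CPM) and 32 UMIs in CKO (192 CPM), a ratio of 0.415 (0.280–0.594). Tnfrsf18 had 312 UMIs in WT (334 CPM) and 43 in CKO (258 CPM), a ratio of 0.774 (0.549–1.07), and did not reach the 1.5-fold size. Their intervals overlap, and the difference between the genes was not tested. Tnfrsf4 was detected in 67.4% of WT and 47.1% of CKO cells (42.1% and 30.5% thinned), Tnfrsf18 in 72.6% and 58.8% (41.3% and 36.3% thinned).

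Nt5e and Izumo1r were also lower. Nt5e had 104 UMIs in WT (111 CPM) and 4 UMIs in CKO (24.0 CPM), a ratio of 0.216 (0.0577–0.569) or 4.63-fold lower. Its UMIs lay in 45 WT cells and 3 CKO cells. Izumo1r, with 563 UMIs in WT (602 CPM) and 41 in CKO (246 CPM), had a ratio of 0.409 (0.290–0.562). Before thinning it was the member detected in the most WT cells after Foxp3, with 85.2% of WT and 47.1% of CKO cells. After thinning its shares were 60.0% and 29.7%, and in WT that of Ikzf2 was higher at 70.6%. Cells with UMIs of both Nt5e and Izumo1r were 43 of 135 in WT and 3 of 34 in CKO. Gpr83 had 73 UMIs in WT (78.1 CPM) and 9 in CKO (54.0 CPM), a ratio of 0.692 (0.304–1.39), and so did not differ beyond counting error.

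**Figure D3:**
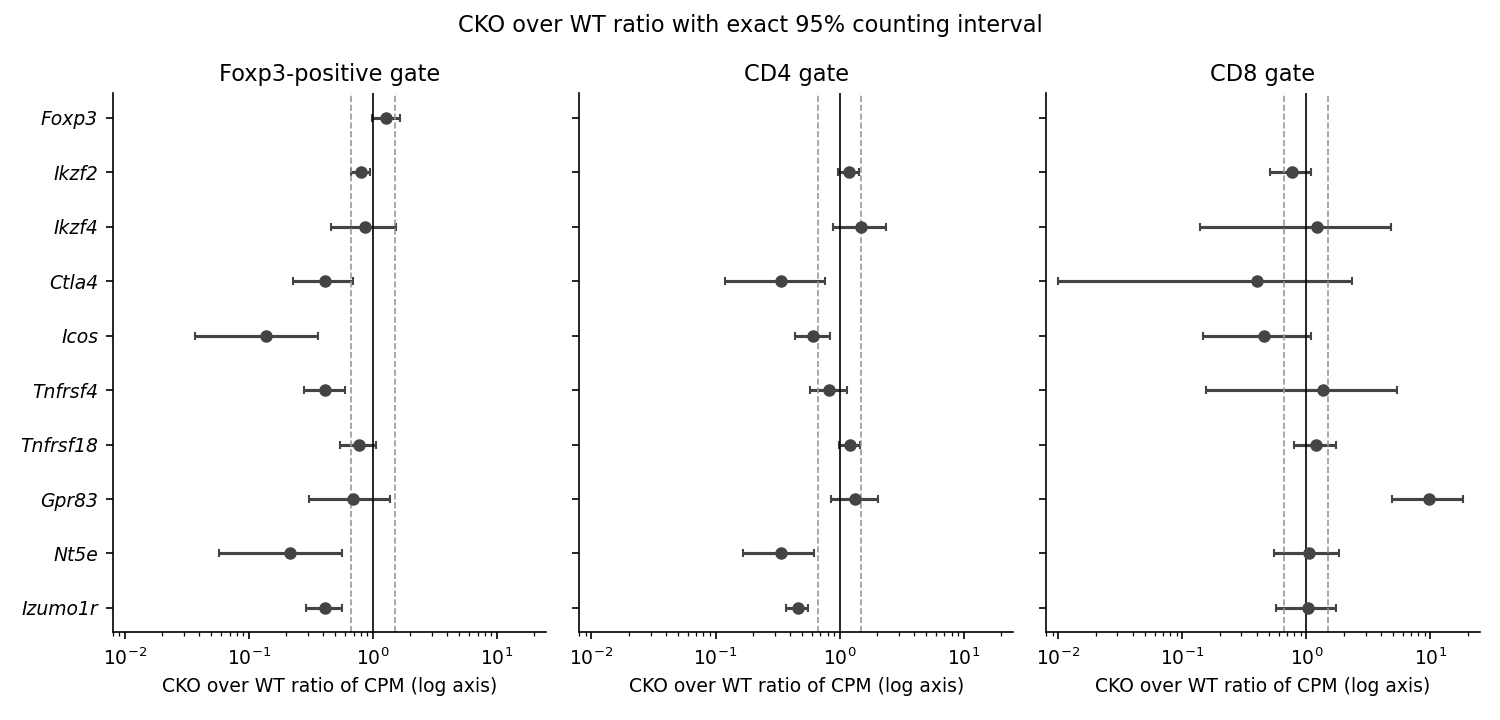
CKO over WT ratio of CPM (log axis) for each member in the 3 gates, with exact 95% counting intervals; the solid line marks 1, the dashed lines 1.5-fold in either direction, and genes with under 20 summed UMIs are left out. Icos (0.138), Nt5e (0.216), Izumo1r (0.409), Ctla4 (0.411) and Tnfrsf4 (0.415) lie left of the dashed line in the Foxp3-positive gate, and Gpr83 (9.68) lies far right in the CD8 gate.

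Genes of effector regulatory T cells were lower in the CKO Foxp3-positive gate and most genes of resting ones higher. Of 14 effector genes 10 were measured, and all 10 were at least 1.5-fold lower in CKO, beside 22.7% of all measured genes. Their median log2 ratio was -3.21, or -1.83 with genes at 0 set to their bound. S100a6 had 570 UMIs in WT and 0 in CKO, at least 33.9-fold lower when 0 is taken as 3 counts over the gate. Klrg1, an inhibitory receptor of terminal effector cells, had 73 and 0 UMIs (at least 4.34-fold lower). Itgae (40 and 0 UMIs) and Ccr2 (50 and 0 UMIs) were at least 2.38-fold and 2.97-fold lower. Maf, a transcription factor of interleukin-10 producers, had 194 and 3 UMIs (0.0868, 0.0177–0.257). The highest ratios on the list were those of Batf (0.577, 0.280–1.07) and Lgals1 (0.453, 0.328–0.612). Of the 9 central or resting genes analysed here, 7 were at least 1.5-fold higher and 0 lower, beside 14.5% higher of all measured genes, with a median log2 ratio of 0.81. Satb1, a chromatin organizer, went from 263 to 744 CPM (2.83, 2.26–3.52) and Bach2, a repressor of effector genes, from 54.5 to 126 CPM (2.31, 1.32–3.91). The lowest of this list were the interleukin-7 receptor gene Il7r (1.04) and Klf2 (1.38). Without the 4 cycling WT cells the counts were 10 of 10 effector genes lower and 5 of 9 resting genes higher. The effector list was lower in the CD4 gate as well, with 6 of 10 measured genes at least 1.5-fold lower and 0 higher, beside 9.0% lower and 6.67% higher of all measured genes there. In the CD8 gate it went the other way, with 9 of 12 measured genes higher and 1 lower, beside 12.0% and 13.0%. The resting list had 1 of 9 genes higher in each of these gates, and 1 lower in the CD4 gate.

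**Figure D4:**
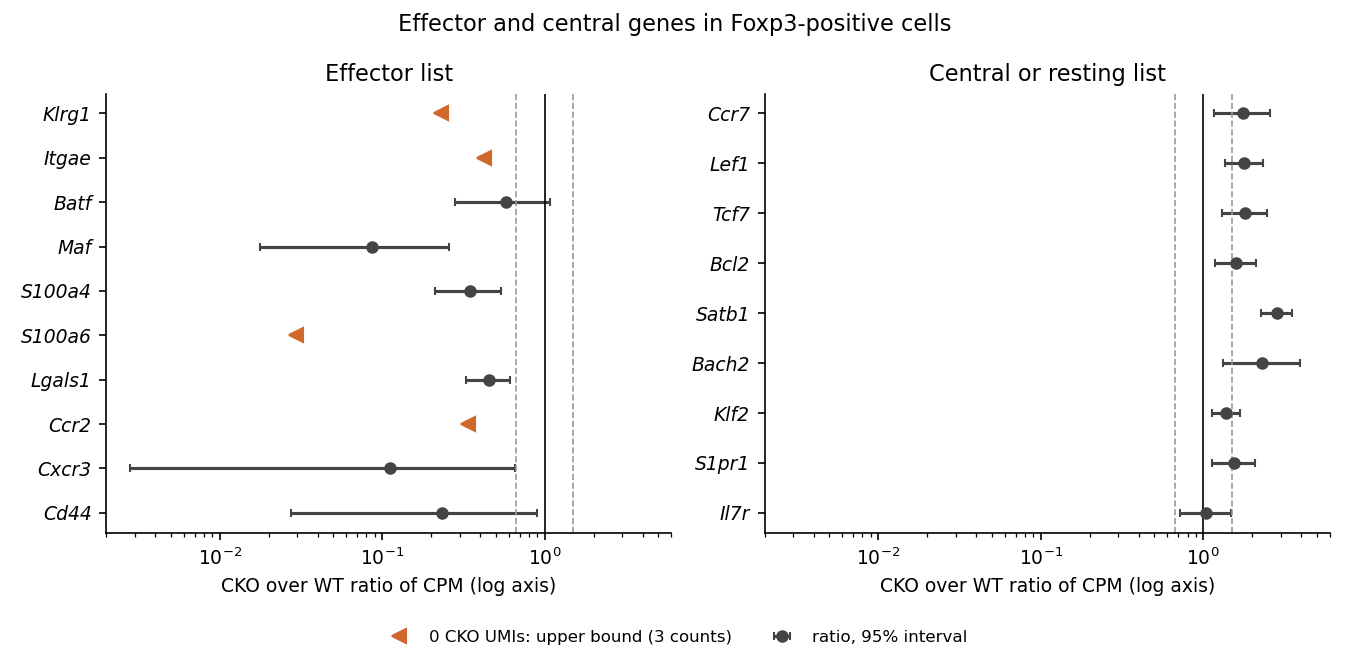
CKO over WT ratio of CPM (log axis) in the Foxp3-positive gate for the measured genes of the effector list (left) and the central or resting list (right), as points with exact 95% counting intervals. Triangles mark genes with 0 CKO UMIs at the bound given by 3 counts, such as S100a6, and dashed lines mark 1.5-fold; Satb1, at 2.83, is the rightmost point.

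Interleukin-2 signalling genes, on which regulatory T cells depend, differed by less than 1.5-fold except for the high-affinity receptor chain Il2ra and for Stat5a. Of 8 genes 7 were measured, with 1 at least 1.5-fold lower and 1 higher, beside 22.7% and 14.5% of all measured genes. With at least 2 Foxp3 UMIs required, 2 were lower and 2 higher. Il2ra had 250 UMIs in WT (267 CPM) and 17 in CKO (102 CPM), a ratio of 0.382 (0.219–0.624). The other receptor chains stood at 0.762 (0.502–1.12) for Il2rb and 1.18 (0.893–1.53) for Il2rg. Of the signal transducers, Stat5a was at 2.06 (0.931–4.22), the gene at least 1.5-fold higher, with an interval that includes 1, and Stat5b at 1.12 (0.637–1.88). The feedback inhibitors Socs1 (0.995) and Cish (0.810) did not reach the 1.5-fold size, and the kinase gene Jak3 had 14 and 0 UMIs.

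Of 18 further regulatory T cell genes, 17 were in the files (Folr4 is an older symbol of Izumo1r) and 13 were measured, with 9 lower and 0 higher, beside 22.7% lower and 14.5% higher of all measured genes. The lowest by their ratio, apart from Gzmb with 23 and 0 UMIs, were Capg, which caps actin filaments (317 and 36.0 CPM; 0.114, 0.0414–0.251), and Cd83 (0.122, 0.00302–0.715, on 1 CKO UMI). The highest were Ikzf3 (1.25) and Gata3 (0.966). With at least 2 Foxp3 UMIs required, 5 of 11 measured genes of this list were lower and 1 higher. Among 19 measured partners and regulators of FOXP3, 3 were lower and 3 higher, shares near those of all measured genes. With a Cd4 UMI required, 6 were lower and 4 higher, and with cells with a Trdc UMI kept, 3 lower and 1 higher. Foxo1, which drives Foxp3 transcription, was at 1.59 (1.13–2.19), and the other end was held by Nfatc2 (0.510, 0.100–1.63) and Nfatc1 (0.535, 0.223–1.10). Creb1, at 1.52 (0.877–2.51), was the second highest. None of the 5 Ikaros-family genes differed by 1.5-fold, while 2 were lower by that size with a Cd4 UMI required and 1 with at least 2 Foxp3 UMIs.

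In the CD4 gate, 4 of the same 5 genes were lower and the others were not. Of 9 measured members 4 were at least 1.5-fold lower and 0 higher, against 9.0% and 6.67% of 10052 genes. The members' median log2 ratio was -0.27, beside 0.02 over all measured genes. Izumo1r, the member with the most UMIs there, stood at 141 CPM in WT (1142 UMIs) and 64.6 CPM in CKO (110 UMIs), a ratio of 0.458 (0.373–0.558). Ctla4 stood at 10.5 CPM (85 UMIs) and 3.52 CPM (6 UMIs), a ratio of 0.336 (0.120–0.762). Nt5e stood at 19.1 and 6.46 CPM (155 and 11 UMIs), a ratio of 0.338 (0.165–0.621). Icos stood at 41.9 and 25.8 CPM (340 and 44 UMIs), a ratio of 0.616 (0.439–0.845), against 0.138 in Foxp3-positive cells. These 4 genes were lower in both the Foxp3-positive and the CD4 gate.

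The remaining members gave ratios near or above 1 in the CD4 gate. Tnfrsf4 stood at 29.2 and 24.1 CPM, a ratio of 0.823 (0.576–1.15). Ikzf2 stood at 62.7 and 74.5 CPM, a ratio of 1.19 (0.972–1.45), which was 1.51 (1.22–1.87) when no B marker UMI was allowed. Tnfrsf18 (1.21, 0.991–1.46), Gpr83 (1.34, 0.855–2.04) and Ikzf4 (1.48, 0.884–2.39) had intervals that include 1. Cells with both Izumo1r and Nt5e, a pair described on anergic CD4 T cells, were 66 of 1185 (5.57%, 4.33–7.03%) in WT and 6 of 277 (2.17%, 0.799–4.65%) in CKO. Foxp3 transcripts are sparse, and the CD4 gate can hold regulatory T cells in which none was captured. In it, 82 WT cells (6.92%) and 14 CKO cells (5.05%) carried at least 4 of the 9 other members.

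CD8 T cells were described on 75 CKO cells only, and Gpr83 stood out. It had 29 UMIs in WT (3.14 CPM) and 16 UMIs in CKO (30.4 CPM), a ratio of 9.68 (4.91–18.4). The ratio was 5.65 with cells with a Trdc UMI kept and 12.7 with a Cd8b1 UMI required. These UMIs lay in 21 of 1139 WT cells (1.84%) and 11 of 75 CKO cells (14.7%), or 0.552% and 4.50% after thinning, against 0.0144% and 0.0307% in the B gate. All 11 CKO cells had a Cd8b1 UMI, 10 had a Trac UMI, and 0 had a Cd44 UMI. Of all CKO CD8 gate cells, 97.3% had a Cd8b1 UMI and 90.7% a Trac UMI. The gate required a Cd8a or Cd8b1 UMI, so the Cd8b1 and Trac counts do not set these 11 cells apart. The activation marker gene Cd44 was sparse in the whole gate, with 182 UMIs in 1139 WT and 21 UMIs in 75 CKO cells. Its absence from 11 cells therefore says little about their activation. Of the WT Gpr83 UMIs 20.7% came from 1 cell, and of the CKO UMIs 18.8%.

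No other member was higher in the CD8 gate, and 2 were lower on very few CKO UMIs. Of 9 measured members, 1 was at least 1.5-fold higher against 12.0% of 10000 genes, and 2 lower against 13.0%. Icos had 191 and 5 UMIs (0.459, 0.148–1.09) and Ctla4 44 and 1 UMI (0.399, 0.00988–2.34). Izumo1r stood at 27.7 and 28.5 CPM (1.03, 0.567–1.73) and Nt5e at 23.5 and 24.7 CPM (1.05, 0.551–1.84), with intervals that include 1. Ikzf2 stood at 77.4 and 59.0 CPM (0.762, 0.514–1.09), but at a ratio of 2.02 (1.68–2.41) when cells with a Trdc UMI were kept in the gate. Tnfrsf18 was at 1.19 (0.791–1.74), and Tnfrsf4 (1.35, 0.155–5.39) and Ikzf4 (1.21, 0.140–4.78) each rested on 2 CKO UMIs. This gate held 12105 UMIs of neutrophil markers in WT, 55.6% of them in 1 cell, and 3754 erythroid UMIs in 1 CKO cell. Leaving out cells with 10 or more such UMIs left 3 members past 1.5-fold, the same count.

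Single Foxp3-positive cells carried fewer of the signature genes in CKO. Of the 9 members other than Foxp3, a WT cell had UMIs of 5 at the median (mean 5.11) and a CKO cell of 3.5 (mean 3.21). Thinned to 2000 UMIs the means were 3.14 and 2.07. At least 4 were present in 106 of 135 WT cells (78.5%, 70.6–85.1%) and 17 of 34 CKO cells (50%, 32.4–67.6%). The CD4 gate means were 1.26 in WT and 1.04 in CKO (0.541 and 0.475 thinned), and the B gate means 0.147 and 0.123, with 0 cells at 4 or more. Foxp3-positive cells of the CKO library thus lay between the WT Foxp3-positive and the CD4 gate cells on this measure. The number of cells with none of the 9 was 1 of 135 in WT and 2 of 34 in CKO.

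**Figure D5:**
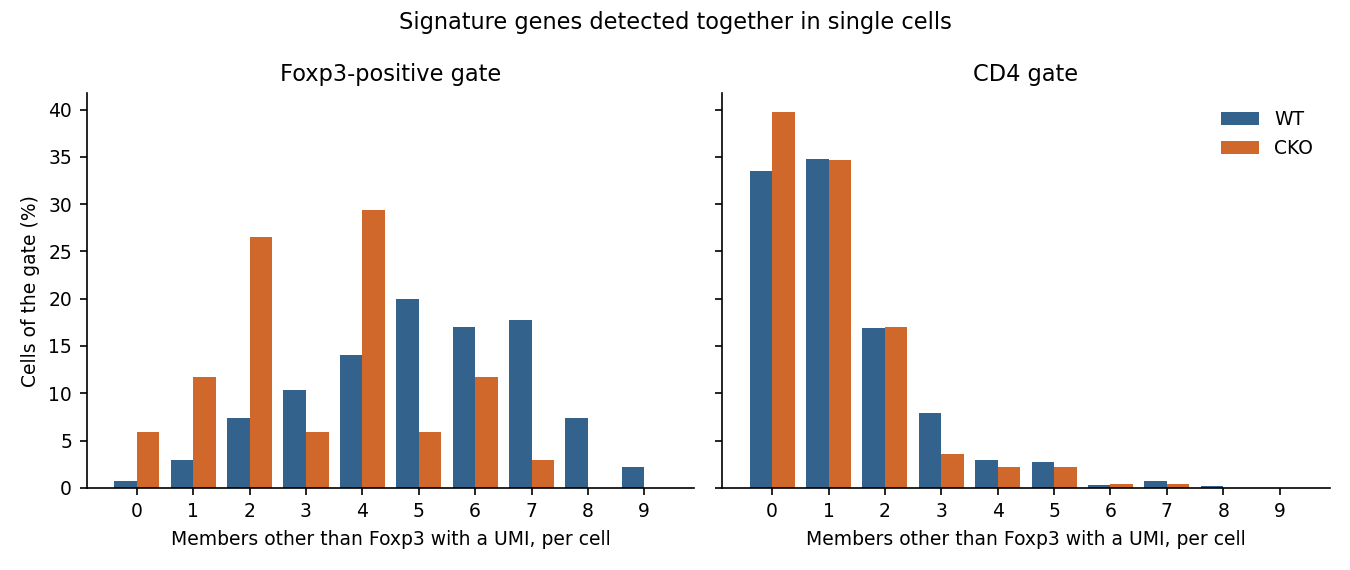
Share of cells (%) by the number of members other than Foxp3 with a UMI, in the Foxp3-positive gate (left) and the CD4 gate (right), WT and CKO side by side, not thinned. WT Foxp3-positive cells centre on a median of 5, CKO cells on 3.5, and most CD4 gate cells of both libraries have 0 or 1.

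By a rule on genome-wide ratios, 10 non-member genes were named as most like the signature, being higher in Foxp3-positive than CD4 gate cells of both libraries: Il2ra, Coro2a, Il2rb, Gsta4, Hopx, Cish, Nrp1, Slc35d1, Swap70 and H2-Q6, whose count is uncertain because near-identical genes share its sequence. The measure was the lower of both libraries' lower 95% bounds of that ratio, over 2428 eligible genes and 2 libraries. Il2ra led with 16.9 in WT and 19.3 in CKO, followed by Coro2a, a coronin that binds actin, with 11.3 and 11.9. The corresponding ratios of Ikzf2 were 17.6 and 11.9. Hopx, a homeodomain-only protein, was at 4.18 in WT and 22.0 in CKO.

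Several members lie side by side in the genome (GRCm38, GENCODE M21). Ctla4 (chromosome 1, 60887000 to 60915832) and Icos (60977927 to 61000320) are 62094 bases apart with no protein-coding gene between. Tnfrsf4 (chromosome 4, 156013843 to 156016612) and Tnfrsf18 (156026164 to 156028895) are 9551 bases apart. Gpr83 (chromosome 9, 14860210 to 14870789) and Izumo1r (14885814 to 14903949, opposite strand) are 15024 bases apart. In the Foxp3-positive gate the CKO over WT ratios of neighbours were 0.411 and 0.138 for Ctla4 and Icos, 0.415 and 0.774 for the receptor pair and 0.692 and 0.409 for Gpr83 and Izumo1r, with overlapping intervals in each pair. Foxp3 (chromosome X, 7573644 to 7595245) overlaps Flicr on the same strand, so UMIs of that region cannot be assigned with certainty.

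Promoter sequences from RefSeq (GRCm38.p6) were matched for 7 members, Foxp3 with 2 start sites; Icos, Ikzf2 and Ikzf4 had no entry. The 250 bases before the start site are shown for the 4 of these that were lower in CKO Foxp3-positive cells and for the neighbours Tnfrsf18 and Gpr83, to set genes past the 1.5-fold size beside adjacent genes that were not. Capitals mark matches, on either strand, to the NFAT core GGAAA, the STAT motif TTCNNNGAA, the RUNX motif TGTGGT, the AP-1 motif TGANTCA, the forkhead motif TGTTTAC or the TATA box TATAAA.
Ctla4, chr1:60908775-60909024, plus strand, ratio 0.411: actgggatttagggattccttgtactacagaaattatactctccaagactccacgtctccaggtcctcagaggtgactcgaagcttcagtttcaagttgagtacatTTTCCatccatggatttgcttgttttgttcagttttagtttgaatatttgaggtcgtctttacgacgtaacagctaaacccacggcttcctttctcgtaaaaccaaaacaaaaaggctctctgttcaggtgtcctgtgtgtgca
Tnfrsf4, chr4:156013445-156013694, plus strand, ratio 0.415: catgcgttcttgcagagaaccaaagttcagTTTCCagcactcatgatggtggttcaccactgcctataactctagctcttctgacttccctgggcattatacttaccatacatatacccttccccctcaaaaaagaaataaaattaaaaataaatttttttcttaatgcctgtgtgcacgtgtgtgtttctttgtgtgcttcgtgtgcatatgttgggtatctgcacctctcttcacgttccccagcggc
Izumo1r, chr9:14903768-14904017, minus strand, ratio 0.409: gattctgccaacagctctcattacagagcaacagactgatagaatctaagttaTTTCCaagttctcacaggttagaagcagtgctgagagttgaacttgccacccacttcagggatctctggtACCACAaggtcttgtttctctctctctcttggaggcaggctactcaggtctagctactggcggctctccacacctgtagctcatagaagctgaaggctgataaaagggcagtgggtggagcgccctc
Nt5e, chr9:88327359-88327608, plus strand, ratio 0.216: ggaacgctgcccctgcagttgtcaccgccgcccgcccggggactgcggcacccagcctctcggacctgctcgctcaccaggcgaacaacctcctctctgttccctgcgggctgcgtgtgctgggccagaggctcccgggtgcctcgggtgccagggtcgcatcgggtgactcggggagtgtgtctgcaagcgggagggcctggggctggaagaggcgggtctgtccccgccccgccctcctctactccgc
Tnfrsf18, chr4:156026072-156026321, plus strand, ratio 0.774: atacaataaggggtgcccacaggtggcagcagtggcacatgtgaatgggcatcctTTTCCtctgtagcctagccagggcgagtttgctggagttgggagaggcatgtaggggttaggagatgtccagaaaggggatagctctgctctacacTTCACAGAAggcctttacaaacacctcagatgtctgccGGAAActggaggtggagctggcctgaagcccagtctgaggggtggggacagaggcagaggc
Gpr83, chr9:14859960-14860209, plus strand, ratio 0.692: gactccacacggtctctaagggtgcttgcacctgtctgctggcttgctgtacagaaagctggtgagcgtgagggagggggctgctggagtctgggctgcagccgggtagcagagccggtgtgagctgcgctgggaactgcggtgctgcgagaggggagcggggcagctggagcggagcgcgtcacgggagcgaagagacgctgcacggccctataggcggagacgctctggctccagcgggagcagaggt
The NFAT core was found in 3 of the 4 lower genes (Ctla4, Tnfrsf4 and Izumo1r) and in Tnfrsf18, and in 5 of the 7 members in all. Of 32851 promoter windows of this length 55.6% hold it, so the members' share is near that of all genes. The STAT motif occurred in Tnfrsf18 and at a Foxp3 start (7.02% of all windows), and the RUNX motif in Izumo1r (14.0%). The TATA box occurred at a Foxp3 start (12.4%). The AP-1 motif (6.75%) and the forkhead motif (3.17%) matched no member's window. The RefSeq starts of Ctla4, Izumo1r, Nt5e, Tnfrsf18 and Foxp3 lie inside the longer GENCODE genes, so their windows fall partly or wholly within those genes. No motif searched was in the windows of all 4 lower genes.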

How the data were processed

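Spleen immune cells, 1 WT and 1 CKO library, were profiled with the 10x Genomics 3′ v3.1 kit, per the labels. The authors deposited raw UMI counts for each barcode and gene, without normalization. Reads were handled with Cell Ranger 5.0.0 and Seurat 4.0.3 on mm10, per the submitters' processing notes, whereas Cell Ranger 6.0.2 stands in the headers of both matrices.

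Cells with 200 to 6000 genes and under 10% mitochondrial UMIs were retained (median 5520 UMIs in WT and 4690 in CKO). Doublets were treated through the marker exclusions of the gates, and Scrublet (scanpy 1.11.5) served as an alternative. UMIs were summed per gate, and a gene needed 20 UMIs over the groups compared and a 1.5-fold difference to be counted. A count of 0 was taken as 3 counts over the gate. Thinning used the exact hypergeometric expectation at 2000 UMIs. No p-value was computed, since 1 library stands for each genotype. The calculations were tested on simulated data. Python 3.11.15, numpy 2.4.6, scipy 1.17.1 and pandas 2.3.3 were used.

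All 10 members are named in every main comparison. Of the genes most like them, the 10 highest by the stated bound are named, and of longer lists the 2 highest and 2 lowest ratios, with further list genes named after their values were seen. Members, lists and rules were chosen with earlier results of these data known. Alternatives covered the cell filter, doublets, each gate's definition, cycling cells, the count minimum, the fold, the CPM denominator and the thinning depth. One gene of the central or resting list is not reported here.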

Additional observations from a re-analysis of the deposited data

Results flagged for a closer look

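In 4 pairs of gates a member gave CKO over WT ratios on opposite sides of 1 with counting intervals that do not overlap; other pairs on opposite sides had overlapping intervals. Each library is a single sample, so these pairs were picked because the values moved in opposite directions, and the differences were not tested. Ikzf2 stood at 0.803 (0.672–0.955) in the Foxp3-positive gate and 1.19 (0.972–1.45) in the CD4 gate. Gpr83 stood at 0.692 (0.304–1.39) in the Foxp3-positive gate and 9.68 (4.91–18.4) in the CD8 gate. Izumo1r stood at 0.409 (0.290–0.562) in the Foxp3-positive gate and 0.458 (0.373–0.558) in the CD4 gate, against 1.03 (0.567–1.73) in the CD8 gate.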

How the results depend on the processing

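No paired analysis was possible because each genotype has 1 library, and for the same reason no replicate could be left out. Of the values of the main results under alternatives, 90 stayed within the counting interval of the reported value (counts within 1.5 times) and 2 moved out of it. The 2 that moved were the mean numbers of other members per Foxp3-positive cell thinned to 1000 instead of 2000 UMIs, 2.07 in WT and 1.32 in CKO, which follows from fewer UMIs per cell. The share ratio of Foxp3-positive cells, 1.07, ranged from 0.914, with at least 2 Foxp3 UMIs, to 1.34, with no B marker UMI, and so did not keep its side of 1. The number of members past 1.5-fold ranged from 5 to 7 in the Foxp3-positive gate and from 3 to 5 in the CD4 gate. In the CD8 gate it was 3 under each alternative run, but not always the same members. Icos there, at 0.459 as reported, reached 0.815 under an alternative, and Ikzf2 reached 2.02. Of the values of single members 313 stayed within the counting interval of the reported ratio and 5 moved out of it. These were Ikzf2 in the Foxp3-positive gate with at least 2 Foxp3 UMIs (1.07) and with a Cd4 UMI required (0.643), Ikzf4 there with a Cd4 UMI required (0.399), Ikzf2 in the CD4 gate with no B marker UMI (1.51) and in the CD8 gate with Trdc-positive cells kept (2.02). No ratio past 1.5-fold crossed 1. Ratios nearer to 1 did: Ikzf2 (up to 1.07) and Ikzf4 (up to 1.01) in the Foxp3-positive gate, and in the CD8 gate Ikzf2 (up to 2.02), Ikzf4 (down to 0.742), Tnfrsf4 (down to 0.738), Nt5e (down to 0.746) and Izumo1r (down to 0.737). Icos, Tnfrsf4, Izumo1r, Ctla4 and Nt5e had intervals below 1 in the Foxp3-positive gate in 12 of 12 alternatives. Scrublet marked 1394 WT and 1293 CKO cells but 0 of the Foxp3-positive gate, so leaving its cells out changed nothing there. In that gate 0 cells had 10 or more neutrophil or erythroid UMIs, so leaving such cells out changed nothing either. Both alternatives count among the 12. Limits are the 34 CKO Foxp3-positive cells and counts of 4 UMIs for Icos and Nt5e. The list counts under alternatives were added after seeing the data.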

Other observations

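The ligands of these receptors were measured in the same libraries. Icosl, the ligand of ICOS, stood at 76.1 CPM in WT and 73.8 CPM in CKO B cells, and was detected in 32.5% and 30.2% of them. Cd86, a ligand that CTLA4 binds, stood at 32.6 and 31.8 CPM there. Neither differed by 1.5-fold. Tnfsf4, which encodes the OX40 ligand, had 14 UMIs in 6966 WT and 18 UMIs in 9780 CKO B cells, and Tnfsf18, the GITR ligand gene, 9 in each. Il2 had 41 UMIs in WT CD4 gate cells (5.06 CPM), 34.1% of them in 1 cell, and 3 UMIs in CKO (1.76 CPM). Its ratio was 0.348 (0.0690–1.09), with an interval that includes 1.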
